A study of Mus musculus with 4 samples.

Results

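Respiratory complex I, the NADH dehydrogenase of the mitochondrial inner membrane, was followed through 36 of its subunit genes in inguinal white adipose tissue of mice. The genes were taken as a fixed list of Nduf symbols and matched by Ensembl identifier. All 36 had a value in every library, out of 13677 genes measured. RNA sequencing covered 2 libraries labelled FLCNKO, from animals with an adipose knockout of Flcn, and 2 libraries labelled WT, from wildtype animals. Inguinal white fat is a subcutaneous depot, and the series asks how folliculin, the tumour suppressor that Flcn encodes, bears on its browning. The sources used here do not give the Cre driver, the strain, the age or the number of animals per library. No label ties a library to a separate animal, so p-values rest on a spread between libraries that may be technical.

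Complex I takes electrons from NADH, passes them along a flavin and a chain of iron-sulfur clusters to ubiquinone, and pumps protons across the membrane. It is L-shaped. The N module at the tip of the matrix arm oxidises NADH, the Q module below it reduces ubiquinone, and the membrane arm, built around subunits encoded by mitochondrial DNA, holds the proton channels. Core subunits have relatives in bacteria, while the accessory subunits surround them and are needed for assembly or stability. Brown and beige adipocytes are rich in mitochondria, and their heat production depends on a working respiratory chain.

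Values are log2 expression values as the authors deposited them, already brought to nearly one distribution, so a change common to the bulk of genes would not show. Sequencing depth is unknown. Each log2 fold change is the FLCNKO mean minus the WT mean. Flcn itself had values of 12.35 and 12.12 in the FLCNKO-labelled libraries and 12.36 and 12.21 in WT. Its log2 fold change was -0.05 ± 0.13 (SE, n = 2 each; limma adjusted p = 0.852). A gene-level value need not fall when part of a gene is deleted or when other cells of the tissue still express it, so it neither checks nor contradicts the labels. Adipocyte identity was plain in all 4 libraries, since Adipoq, the adiponectin gene, had 17.72 and 17.85 in the FLCNKO-labelled libraries and 18.31 and 18.17 in WT.

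The complex I genes lay higher in the FLCNKO-labelled libraries as a body, mostly by under 1 log2 unit. The median log2 fold change of the 36 members was 0.69, a 1.61-fold difference, against 0.0046 over all 13677 genes, and the members ranged from 0.19 to 1.12. Every member had a positive log2 fold change, as 50.4% of all genes did. In 35 of 36 members both FLCNKO-labelled libraries lay above both WT libraries, which held for 29.2% of all genes; 25.4% had both below, so 54.6% of all genes had groups that did not overlap. By limma 1 member, Ndufv1, rose at an adjusted p under 0.05 and 0 fell, where 0.98% of all genes rose, 0.614% fell and 1.59% did either. At an unadjusted p under 0.05, 29 members were higher and 0 lower, against 12.1% higher and 10.3% lower over all genes. The 95% interval of the difference lay above 0 for those 29 members and held 0 for the other 7. Tissue RNA cannot tell more mitochondria-rich cells from more complex I RNA per cell.

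The libraries did not contribute evenly. The median of the members was 13.65 and 13.20 in the FLCNKO-labelled libraries and 12.93 and 13.0002 in WT. Set against the WT mean of each gene, the median member was 0.95 higher in FLCNKO-labelled replicate 1 and 0.46 higher in replicate 2. All 36 members were higher in replicate 1 than in replicate 2, where 48.6% of all genes were. The WT libraries in contrast nearly coincided, with a median absolute gap of 0.05 over the members and a gap under 0.1 for 29 of them. For the median member the spread behind the test came mostly from the FLCNKO-labelled pair.

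**Figure D1:**
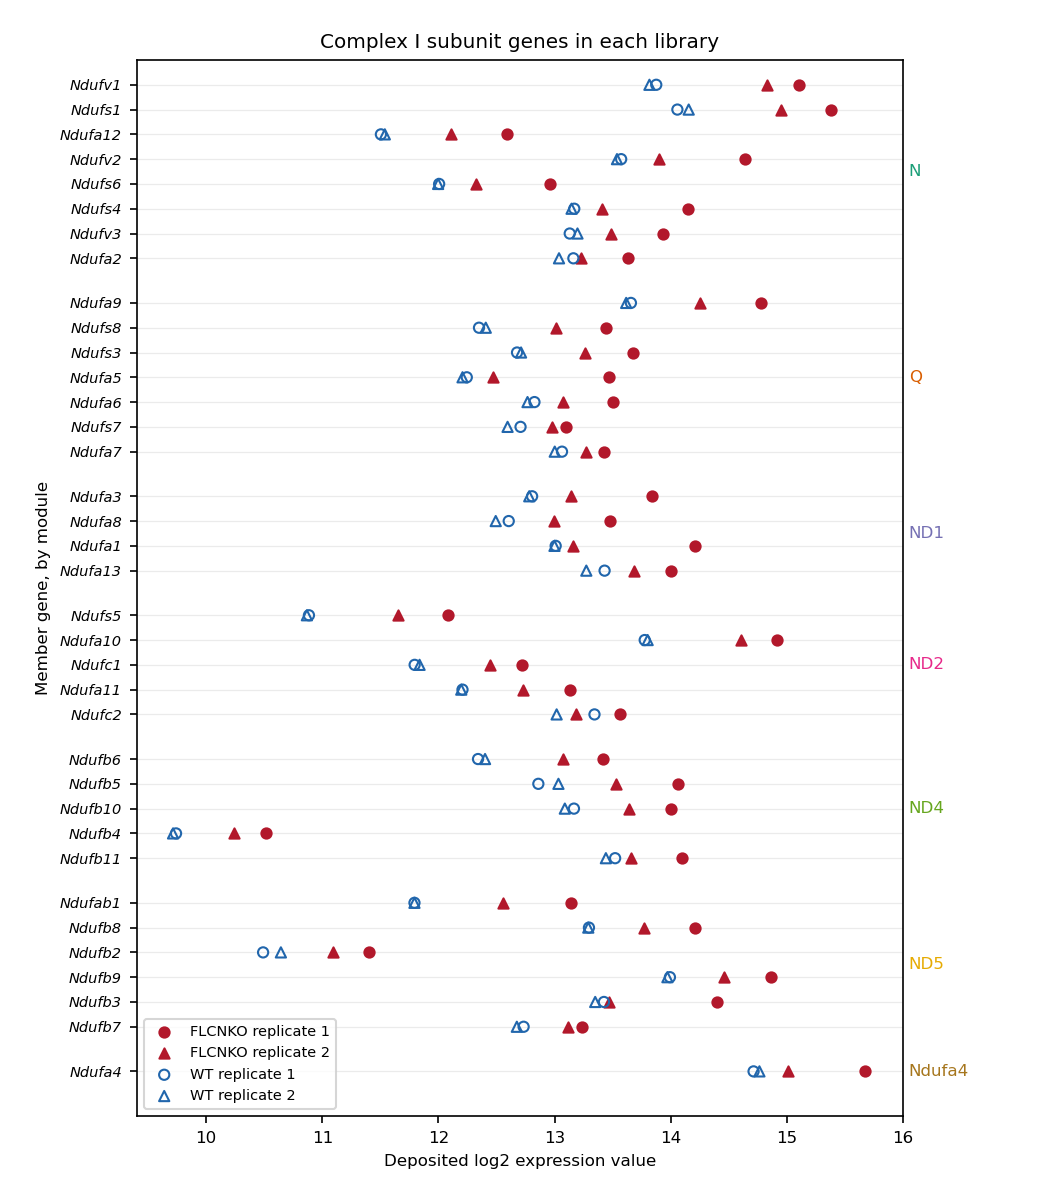
Deposited log2 value (x axis) of each complex I subunit gene (y axis, grouped by module) in the FLCNKO-labelled libraries (filled red) and the WT libraries (open blue), with circles for replicate 1 and triangles for replicate 2. In every row the filled circle lies furthest right, and Ndufc2 is the row in which a WT library lies above an FLCNKO-labelled one.

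The N module held both the widest difference and a broad range. Ndufv1 encodes the subunit that binds the flavin and oxidises NADH. It had 15.11 and 14.83 in the FLCNKO-labelled libraries and 13.88 and 13.82 in WT, so both FLCNKO-labelled libraries stood well clear of WT. Ndufv1 rose, with a log2 fold change of 1.12 ± 0.13 (SE, n = 2 each; limma adjusted p = 0.0422), a 2.18-fold change whose 95% interval on the log2 scale ran from 0.78 to 1.46. Its transcripts shared 0.1% of their 31-base stretches with other genes. The call did not outlast the loss of a library: the log2 fold change was 0.98 without FLCNKO-labelled replicate 1, 1.26 without replicate 2, 1.15 without WT replicate 1 and 1.09 without WT replicate 2, with adjusted p-values of 0.103, 0.0615, 0.291 and 0.26. It was also lost when variances were moderated without the mean-variance trend (adjusted p = 0.14). The Ndufv1 promoter window is shown because this was the member that passed; it runs from 250 bases before to 50 after the annotated start on the minus strand (GRCm38.p6, chr19:4012706-4013005, from RefSeq), with the E-box letters CACGTG in capitals at position -169 from the start.
Ndufv1: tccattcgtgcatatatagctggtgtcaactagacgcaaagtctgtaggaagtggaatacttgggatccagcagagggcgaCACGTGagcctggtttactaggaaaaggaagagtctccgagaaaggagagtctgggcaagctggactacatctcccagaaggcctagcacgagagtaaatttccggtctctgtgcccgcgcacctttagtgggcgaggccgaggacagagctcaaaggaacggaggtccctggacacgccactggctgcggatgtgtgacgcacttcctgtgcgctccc

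Ndufs1 encodes the large iron-sulfur subunit that carries electrons away from the flavin. Its values were 15.38 and 14.95 in the FLCNKO-labelled libraries and 14.06 and 14.15 in WT. The groups were far apart, yet the log2 fold change of 1.06 ± 0.17 (SE, n = 2 each) did not pass (limma adjusted p = 0.0591). Ndufv2, an iron-sulfur partner of Ndufv1, had 14.64 and 13.90 in the FLCNKO-labelled libraries and 13.57 and 13.54 in WT. Replicate 1 alone of the FLCNKO-labelled pair was more than 1 log2 unit above WT, and the log2 fold change of 0.71 ± 0.25 did not pass (adjusted p = 0.192). The other members of the N module are accessory subunits. Ndufa12 (0.83), Ndufs6 (0.64) and Ndufv3 (0.55) had log2 fold changes with intervals above 0. Ndufs4, whose loss gives mice a Leigh-like brain disease, had 14.15 and 13.41 in the FLCNKO-labelled libraries and 13.17 and 13.15 in WT, and the interval of its log2 fold change of 0.62 ran from -0.03 to 1.27. Ndufa2, with a thioredoxin-like fold, had 13.63 and 13.23 in the FLCNKO-labelled libraries against 13.16 and 13.04 in WT. The groups came within 0.1 of touching, and its log2 fold change was 0.33 ± 0.17 (adjusted p = 0.311). The N module median was 0.68 over 8 genes.

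In the Q module the core subunits had unequal log2 fold changes. Ndufs8 and Ndufs3, which with Ndufs7 line the path of electrons to ubiquinone, had log2 fold changes of 0.85 ± 0.17 and 0.77 ± 0.16 (SE, n = 2 each; limma adjusted p = 0.0734 and 0.0825). Ndufs8 had 13.44 and 13.01 in the FLCNKO-labelled libraries and 12.35 and 12.41 in WT. Ndufs3 had 13.67 and 13.26 in the FLCNKO-labelled libraries and 12.68 and 12.71 in WT. For both genes each FLCNKO-labelled library cleared WT by over 0.5. Ndufs7, which holds the last iron-sulfur cluster before ubiquinone, had 13.10 and 12.98 in the FLCNKO-labelled libraries and 12.71 and 12.60 in WT. Its FLCNKO-labelled libraries lay close together and a little above WT, with a log2 fold change of 0.38 ± 0.11 (adjusted p = 0.134). No test of the difference between core subunits was run.

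Among the accessory Q subunits Ndufa9, which sits beside the ubiquinone tunnel, had 14.77 and 14.25 in the FLCNKO-labelled libraries and 13.66 and 13.62 in WT. The log2 fold change of 0.88 ± 0.19 (SE, n = 2 each) was the highest of the module, without passing (limma adjusted p = 0.0876). Ndufa7 had 13.43 and 13.27 in the FLCNKO-labelled libraries and 13.06 and 13.001 in WT, one of the smallest differences in the complex (log2 fold change 0.32 ± 0.11, adjusted p = 0.187). Ndufa5 had 13.46 and 12.47 in the FLCNKO-labelled libraries and 12.24 and 12.21 in WT. One FLCNKO-labelled library thus carried most of its log2 fold change of 0.74, whose interval ran from -0.10 to 1.58. Ndufa6, an LYR-motif protein that binds the acyl carrier subunit, had a log2 fold change of 0.49. The Q module median was 0.74 over 7 genes. The Ndufa9 window (minus strand, GRCm38.p6, chr6:126849095-126849394, from RefSeq) is given as an example of the motif most frequent among the members relative to other genes, AAGATGGC, a sequence bound by the zinc finger protein YY1, in capitals at position 29 after the start.
Ndufa9: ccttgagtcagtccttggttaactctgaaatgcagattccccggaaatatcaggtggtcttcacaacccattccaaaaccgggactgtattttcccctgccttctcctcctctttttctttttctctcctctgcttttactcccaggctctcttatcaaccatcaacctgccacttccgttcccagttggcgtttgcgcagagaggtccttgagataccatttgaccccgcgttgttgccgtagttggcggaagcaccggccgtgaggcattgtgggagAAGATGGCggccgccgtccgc

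The proximal membrane arm joins the matrix arm to the proton channels through the ND1 and ND2 modules. The ND1 accessory genes were alike in size of difference, with log2 fold changes of 0.70 for Ndufa3, 0.69 for Ndufa8, 0.68 for Ndufa1 and 0.49 for Ndufa13, the GRIM-19 gene. They differed in spread. The X-linked Ndufa1 had 14.21 and 13.16 in the FLCNKO-labelled libraries and 13.01 and 12.999 in WT, the widest gap of any member between the FLCNKO-labelled libraries, and an interval from -0.19 to 1.56. Ndufa13 had 14.004 and 13.69 in the FLCNKO-labelled libraries and 13.43 and 13.27 in WT, so its groups lay closer but its interval, 0.11 to 0.87, stayed above 0. The ND1 module median was 0.68 over 4 genes.

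The ND2 module held the lowest member and 2 of the 5 highest. Ndufs5, a twin-cysteine protein of the intermembrane space side, had 12.08 and 11.65 in the FLCNKO-labelled libraries and 10.88 and 10.87 in WT. Its log2 fold change was 0.99 ± 0.17 (SE, n = 2 each; limma adjusted p = 0.0628), and 26.5% of its 31-base stretches occur in BC002163, so its value is uncertain. Ndufa10, related to nucleoside kinases, had 14.91 and 14.60 in the FLCNKO-labelled libraries and 13.78 and 13.80 in WT. The groups were widely apart and Ndufa10 missed the threshold narrowly (log2 fold change 0.97 ± 0.14, adjusted p = 0.0509). Over the alternatives tried, its adjusted p ran from 0.0339 to 0.343, on both sides of the threshold. Ndufc1, and Ndufa11, which lies at the contact with complex III, had log2 fold changes of 0.76 ± 0.13 and 0.73 ± 0.16 (adjusted p = 0.064 and 0.0877). Ndufc2 had the smallest difference of all members. It had 13.56 and 13.18 in the FLCNKO-labelled libraries and 13.34 and 13.02 in WT, the one member whose groups overlapped, and also the member with the widest WT gap. Its log2 fold change was 0.19 ± 0.19 (adjusted p = 0.604), and the interval from -0.28 to 0.66 does not exclude 0.5. The ND2 median was 0.76 over 5 genes.

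Windows of 3 ND2 genes are shown: Ndufs5 as the highest of the module, Ndufa11 as the one member with the NRF1 palindrome, and Ndufc2 as the lowest. They are given from RefSeq (GRCm38.p6): Ndufs5 on the minus strand, chr4:123718137-123718436, with the estrogen-related receptor core AAGGTCA in capitals, read on the other strand at position -228; Ndufa11 on the plus strand, chr17:56717512-56717811, with the NRF1 palindrome at position -60; and Ndufc2 on the plus strand, chr7:97399753-97400052, with its CCAAT box at position -129. The NRF1 core GCATGCGC, also searched, lies inside that palindrome of Ndufa11 on both strands. None of the remaining motifs searched occurs in these 3 windows or in those of Ndufv1 and Ndufa9.
Ndufs5: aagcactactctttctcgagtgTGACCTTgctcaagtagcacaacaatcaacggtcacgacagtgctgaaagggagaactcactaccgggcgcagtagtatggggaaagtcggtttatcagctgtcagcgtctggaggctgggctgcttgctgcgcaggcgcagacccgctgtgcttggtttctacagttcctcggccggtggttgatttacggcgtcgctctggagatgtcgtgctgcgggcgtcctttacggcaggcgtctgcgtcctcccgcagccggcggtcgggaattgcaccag
Ndufa11: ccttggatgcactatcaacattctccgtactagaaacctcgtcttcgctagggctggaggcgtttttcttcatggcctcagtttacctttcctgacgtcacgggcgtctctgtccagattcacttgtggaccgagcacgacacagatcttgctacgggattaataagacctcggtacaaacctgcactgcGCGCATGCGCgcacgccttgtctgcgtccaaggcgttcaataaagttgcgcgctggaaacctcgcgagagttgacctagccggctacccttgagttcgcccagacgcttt
Ndufc2: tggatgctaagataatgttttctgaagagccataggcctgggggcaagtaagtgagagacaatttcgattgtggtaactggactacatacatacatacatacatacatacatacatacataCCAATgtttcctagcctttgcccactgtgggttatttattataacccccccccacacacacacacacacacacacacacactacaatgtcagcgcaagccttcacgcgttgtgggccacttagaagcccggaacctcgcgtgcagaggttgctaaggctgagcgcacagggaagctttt

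**Figure D2:**
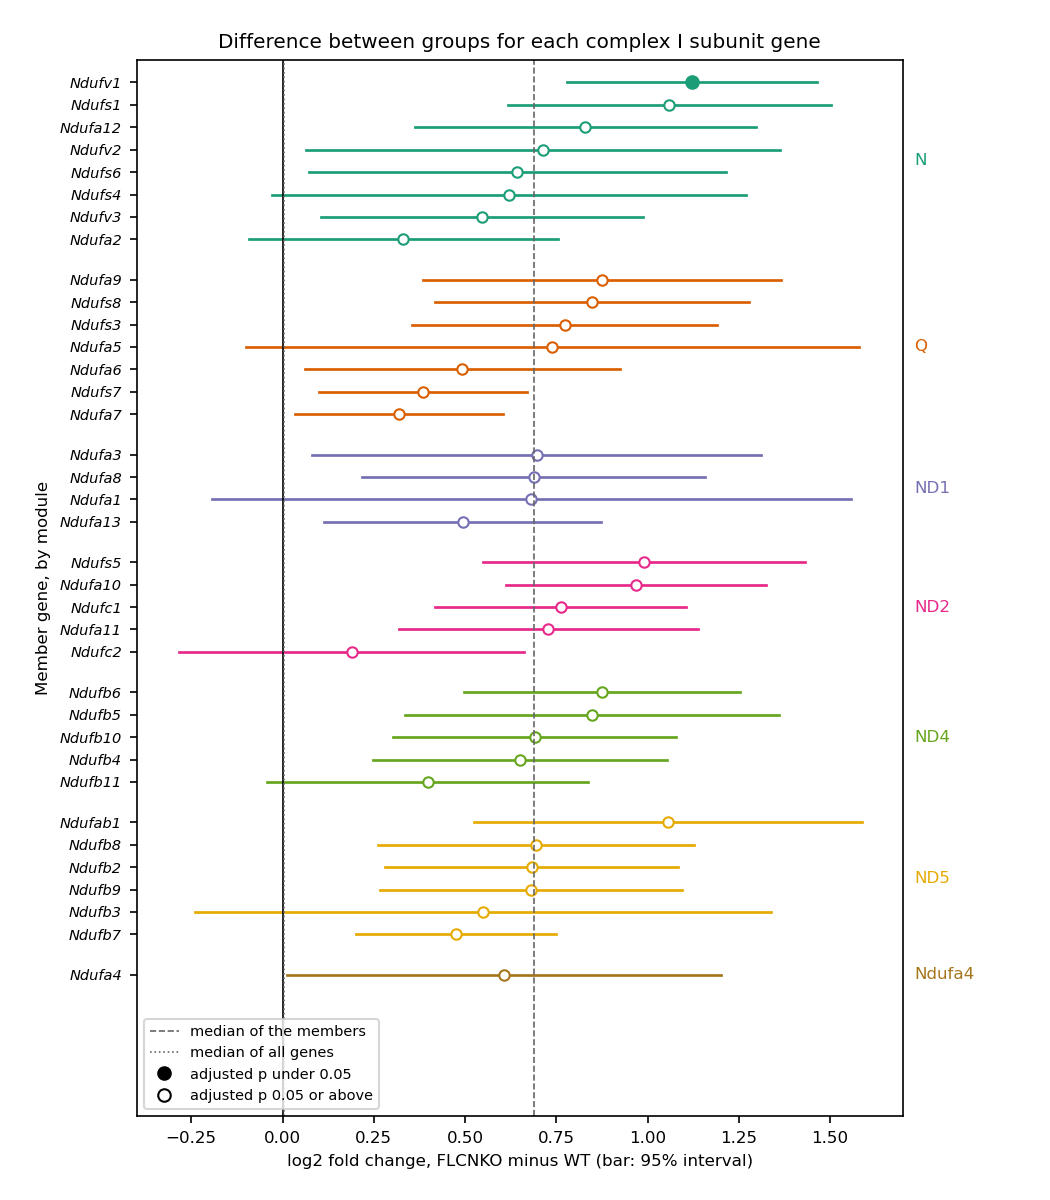
Log2 fold change of each complex I subunit gene (x axis, FLCNKO minus WT, points) with its 95% interval (bars), by module (y axis). Ndufv1 at 1.12 is the filled point that passed the threshold, and the dashed line marks the median of 0.69 for the members, beside 0.0046 for all genes (dotted).

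The distal membrane arm carries the ND4 and ND5 modules, whose accessory subunits are mostly named Ndufb. In ND4, Ndufb6 had 13.42 and 13.07 in the FLCNKO-labelled libraries and 12.34 and 12.40 in WT, a log2 fold change of 0.88 ± 0.15 (SE, n = 2 each; limma adjusted p = 0.0614). Smim27, an overlapping gene on the opposite strand, shares 34.4% of the 31-base stretches of Ndufb6, and strand handling in the counting is unknown, so that value is uncertain. Ndufb5 had 14.06 and 13.53 in the FLCNKO-labelled libraries and 12.86 and 13.03 in WT (log2 fold change 0.85). Ndufb10 and Ndufb4 had log2 fold changes of 0.69 and 0.65, and X-linked Ndufb11 had 0.40 with an interval from -0.04 to 0.84. The ND4 median was 0.69.

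In ND5, Ndufab1 had the widest difference. It encodes the mitochondrial acyl carrier protein, which is a subunit of complex I in duplicate positions and also serves mitochondrial fatty acid synthesis. Its values were 13.14 and 12.56 in the FLCNKO-labelled libraries and 11.79 in both WT libraries. With a log2 fold change of 1.06 ± 0.21 (SE, n = 2 each) it did not pass (limma adjusted p = 0.0726), and the FLCNKO-labelled libraries were 0.58 apart. Ndufb8, Ndufb2 and Ndufb9 lay close together at log2 fold changes of 0.69, 0.68 and 0.68. Ndufb7, another twin-cysteine subunit, had 13.24 and 13.12 in the FLCNKO-labelled libraries and 12.73 and 12.67 in WT. Both groups were tight and apart, with a log2 fold change of 0.48 ± 0.11 (adjusted p = 0.0904). Ndufb3 had 14.40 and 13.47 in the FLCNKO-labelled libraries and 13.42 and 13.35 in WT, so replicate 2 lay just above WT and the interval of its log2 fold change of 0.55 ran from -0.24 to 1.34. The ND5 median was 0.68 over 6 genes.

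Ndufa4 was named as a complex I subunit but is now placed in complex IV, cytochrome c oxidase. It had 15.68 and 15.01 in the FLCNKO-labelled libraries and 14.71 and 14.76 in WT, and its log2 fold change of 0.61 ± 0.23 (SE, n = 2 each; limma adjusted p = 0.216) lay within the range of the complex I members. Across the 6 modules the medians thus ran from 0.68 to 0.76, a narrower band than the SD of 0.22 between members. The 6 core subunits had a median log2 fold change of 0.81 (range 0.38 to 1.12) and the other 30 genes, Ndufa4 among them, 0.68 (range 0.19 to 1.06). These are descriptions, and no difference between modules or classes was tested.

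Further genes of the complex, not among the 36, were looked up as well. Ndufa4l2, a relative of Ndufa4 known for its induction by low oxygen, had 8.25 and 9.29 in the FLCNKO-labelled libraries and 8.44 and 8.13 in WT, so its groups overlapped (log2 fold change 0.48, limma adjusted p = 0.527). Of the subunits encoded by mitochondrial DNA 5 had values. mt-Nd6, the one encoded on the light strand, had 12.37 and 11.63 in the FLCNKO-labelled libraries and 9.67 and 9.85 in WT. It rose, with a log2 fold change of 2.24 ± 0.27 (SE, n = 2 each; limma adjusted p = 0.0419), and the call was lost whichever library was left out. Without the strand setting, reads from mt-Nd6 and from transcripts of the opposite strand cannot be told apart. mt-Nd1 had 20.23 and 19.93 in the FLCNKO-labelled libraries and 19.43 in both WT libraries, with a log2 fold change of 0.65 that did not pass (adjusted p = 0.175). At this height the normalization gives different genes the same few values: both FLCNKO-labelled libraries had 19.43 for mt-Nd2 as well, so equal replicates there do not measure spread. The log2 fold changes of mt-Nd2, mt-Nd4 and mt-Nd5 were 0.15, 0.64 and 0.64.

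Complex I is put together by assembly factors that are not part of the finished enzyme. All 20 of those listed were measured. By limma 1 of the 20 rose and 0 fell, where 0.98% of all genes rose and 0.614% fell. At an unadjusted p under 0.05, 14 were higher and 0 lower, against 12.1% and 10.3% of all genes. In 17 both FLCNKO-labelled libraries lay above both WT libraries and in 1 both lay below, against 29.2% and 25.4% of all genes. The median log2 fold change was 0.50, against 0.0046 over all genes. The gene that rose, Ndufaf4, a factor of early assembly of the matrix arm, had 11.95 and 11.94 in the FLCNKO-labelled libraries and 10.93 and 10.93 in WT. Replicates coincided in both groups, and its log2 fold change was 1.01 ± 0.11 (SE, n = 2 each; limma adjusted p = 0.0404), a call lost whichever library was left out and without the mean-variance trend. Ndufaf6 followed with a log2 fold change of 0.92 ± 0.24 that did not pass (adjusted p = 0.114). At the other end, Ndufaf8 had 0.13 ± 0.20 and Dmac1, a factor of the distal arm, -0.16 ± 0.12 (adjusted p = 0.752 and 0.5). Dmac1 had 11.22 and 11.12 in the FLCNKO-labelled libraries and 11.41 and 11.26 in WT, the 1 factor with a negative log2 fold change.

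The other respiratory complexes also had positive medians. Median log2 fold changes were 0.88 for 4 complex II genes, of which limma called 1 higher, and 0.84 for 9 complex III genes, with 2 higher. For 15 complex IV genes the median was 0.81, with 2 higher, and for 16 complex V genes 0.65, with 0 called and 12 higher at an unadjusted p under 0.05. None of these lists had a gene called lower. Over all genes limma called 0.98% higher and 0.614% lower, and 12.1% were higher at an unadjusted p under 0.05. Complex IV ran from -1.77 for Cox6a2, a muscle isoform, to 3.57 for Cox7a1, an isoform of muscle and brown fat, and neither passed (adjusted p = 0.574 and 0.055). The 2 complex IV genes called were Cox8b and Cox5b. Cox8b and Cox7a1 are also among the brown and beige adipocyte markers described below. Complex III ran from 0.56 to 1.07. Of 5 other enzymes that pass electrons between NADH or quinone pools, 2 rose. These were Gpd2, of the glycerol phosphate shuttle, with a log2 fold change of 2.26, and Etfdh, which passes on electrons from fatty acid oxidation, with 1.58 (limma adjusted p = 0.0404 for each). No test of complex I against these lists was run.

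**Figure D3:**
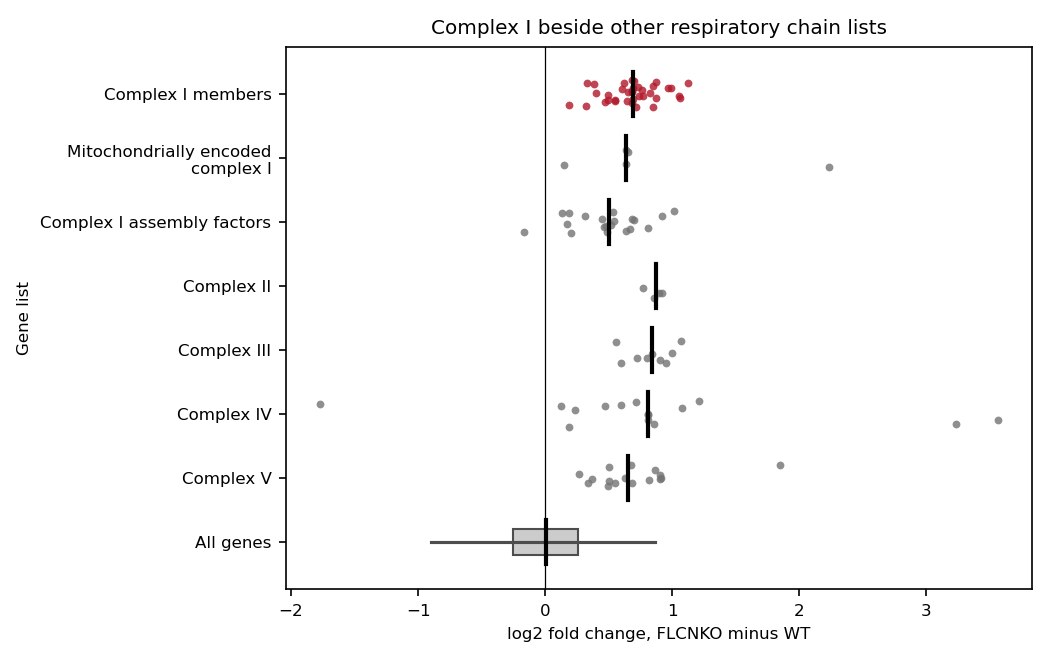
Log2 fold change (x axis, FLCNKO minus WT) of each gene (points, spread vertically at random) in 7 lists of respiratory chain genes (y axis), with the list median (black bar). The bottom row gives all genes as median, quartile box and 5th to 95th percentile line. The complex I members sit between 0.19 and 1.12.

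The gap between the FLCNKO-labelled libraries was not the same for every member. It was 1.05 for Ndufa1, 0.998 for Ndufa5 and 0.93 for Ndufb3, and 0.12 for both Ndufs7 and Ndufb7 and 0.16 for Ndufa7. Members with a lower GC content in their longest coding transcript had wider gaps (Spearman's rho = -0.54 over 36 genes that share the same libraries). Over 13592 genes rho was -0.23, and for the WT gap of the members it was 0.39, of the opposite sign. Members are also short, with a median transcript of 944.5 bases against 3089 bases over all genes. Longer members had higher log2 fold changes (Spearman's rho = 0.46, against -0.08 over 13592 genes). For length and the gap between the FLCNKO-labelled libraries rho was -0.02 over the members. When each library was corrected for GC content and length, an alternative chosen after seeing the data, the median log2 fold change of the members was 0.56, and replicate 1 remained above replicate 2 in 36 of 36 members with a median gap of 0.36. In that fit limma called 6 members, all higher: Ndufv1, Ndufa10, Ndufb6, Ndufc1, Ndufs1 and Ndufs5. Calls also grew over all genes, to 224 higher and 181 lower of 13592, from 134 and 84 of 13677 without the correction. The part of RNA quality or library preparation in the gap was not tested.

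**Figure D4:**
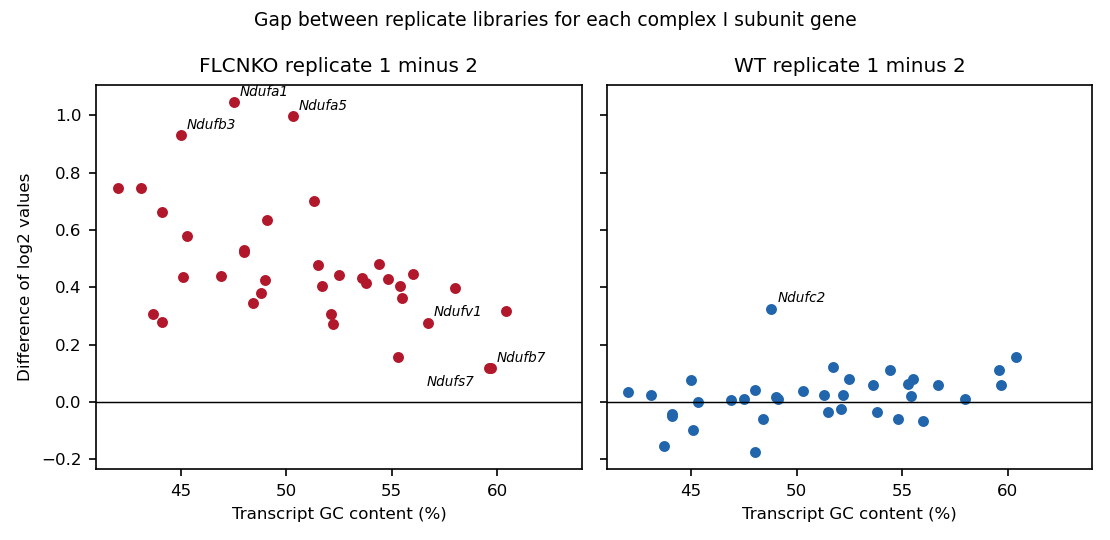
Difference of log2 values between replicate libraries (y axis) against GC content of the longest coding transcript (x axis, %) for the 36 complex I subunit genes, in the FLCNKO-labelled pair (left) and the WT pair (right). All points on the left lie above 0, from 0.12 to 1.05, and those on the right lie between -0.17 and 0.33.

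Markers of the cell types that the depot could hold were described in each library. Over all genes limma called 0.98% higher and 0.614% lower, and 12.1% and 10.3% at an unadjusted p under 0.05. Of 10 brown and beige adipocyte markers, both FLCNKO-labelled libraries lay above both WT libraries in 7, as in 29.2% of all genes. Groups overlapped for Ucp1, Dio2 and Prdm16. Ucp1 had 13.79 and 10.06 in the FLCNKO-labelled libraries and 10.6 and 7.42 in WT (limma adjusted p = 0.336). Dio2 and Prdm16 had log2 fold changes of -0.08 and 0.02. Of the 10 markers, 3 rose by limma and 0 fell. These were Cox8b, which is also on the complex IV list, Otop1 and Ppargc1a. The list median was 12.36 and 10.44 in the FLCNKO-labelled libraries and 9.97 and 9.23 in WT, and the log2 of the summed level was 17.66 and 16.38 against 14.36 and 13.72. FLCNKO-labelled replicate 1 had the highest value of both, as it did for complex I. Skeletal muscle, which lies near this depot, is also rich in complex I. Its 18 measured markers had medians of 11.72 and 5.73 in the FLCNKO-labelled libraries and 12.73 and 9.79 in WT, and the log2 of their summed level was 16.49 and 13.87 against 17.58 and 14.72. Limma called 0 of the 18, and 0 had an unadjusted p under 0.05. By list median and summed level muscle markers were lowest in FLCNKO-labelled replicate 2. There Ckm, the muscle creatine kinase gene, had 3.94 and Myh2, a myosin gene, 2.37, the lowest value that library holds. Not every marker was so low there. Acta1 had 13.29 and 13.32 in the FLCNKO-labelled libraries and 14.50 and 12.21 in WT. Myl1 had 12.40 and 11.79 in the FLCNKO-labelled libraries and 12.79 and 11.82 in WT. Between the FLCNKO-labelled libraries the median muscle marker was 5.39 higher in replicate 1 and the median complex I member 0.43 higher, with 17 of 18 markers and 36 of 36 members higher there. Between the WT libraries the median muscle marker was 3.06 higher in replicate 1 and the median complex I member 0.02 higher, with 18 of 18 markers and 24 of 36 members higher there. Fibroblast and matrix markers had log2 summed levels of 19.10 and 18.97 in the FLCNKO-labelled libraries and 20.14 and 19.9996 in WT, with 5 of 10 lower by limma. Macrophage markers had 17.03 and 16.76 against 17.88 and 17.66, with 2 of 10 lower, Itgam and C1qc. At an unadjusted p under 0.05 by limma, 10 of 10 fibroblast and 9 of 10 macrophage markers were lower and 0 higher. In all 10 of each list both FLCNKO-labelled libraries lay below both WT libraries, as in 25.4% of all genes. White adipocyte markers had medians of 16.49 and 17.26 in the FLCNKO-labelled libraries and 16.86 and 16.98 in WT, with 0 of 10 called by limma (0 higher and 3 lower at an unadjusted p under 0.05). Medians were 11.66 and 12.13 in the FLCNKO-labelled libraries and 12.05 and 12.10 in WT for 10 endothelial markers, and 8.61 and 6.80 against 10.73 and 8.58 for 8 lymphocyte markers. Limma called 0 of either list (0 higher and 1 lower of the endothelial, 0 higher and 2 lower of the lymphocyte markers at an unadjusted p under 0.05). For 5 epithelial markers the medians were 6.52 and 7.47 in the FLCNKO-labelled libraries and 6.95 and 7.20 in WT, with 1 lower by limma, Trp63. The log2 of their summed level was 9.18 and 9.43 in the FLCNKO-labelled libraries and 10.6 and 11.38 in WT. At an unadjusted p under 0.05 by limma, 2 of the 5 were lower and 0 higher. In 3 both FLCNKO-labelled libraries lay below both WT libraries, as in 25.4% of all genes. The part of cell composition in the complex I difference was not tested.

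**Figure D5:**
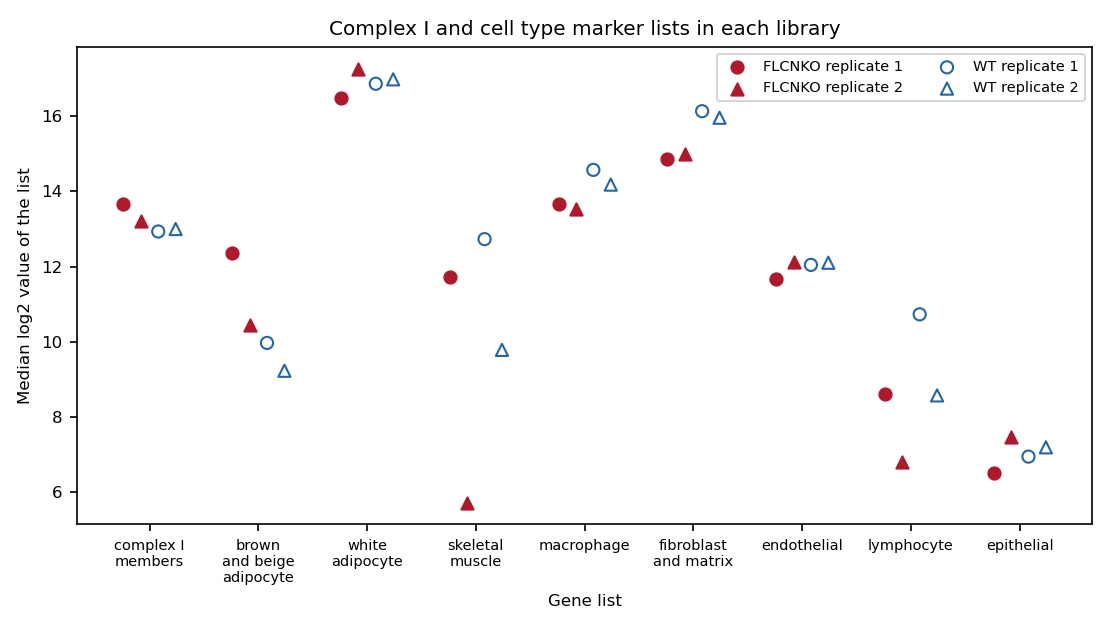
Median log2 value (y axis) of complex I and of 8 cell type marker lists (x axis) in the FLCNKO-labelled libraries (filled red) and the WT libraries (open blue), circles for replicate 1 and triangles for replicate 2. Complex I is at 13.65 and 13.20 in the FLCNKO-labelled libraries and 12.93 and 13.0002 in WT, while the muscle median in FLCNKO-labelled replicate 2 is 5.73.

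Promoter windows of 300 bases were found for 33 of the 36 members in the RefSeq table. These were searched on both strands for 10 short motifs of factors known to act on mitochondrial or housekeeping genes. The YY1 sequence AAGATGGC occurred in 7 of the 33 (21.2%), against 5.07% of measured genes with a window and 2.75% of all windows. The 7 were Ndufa3, Ndufa9, Ndufb8, Ndufc1, Ndufs4, Ndufs6 and Ndufs7. GCATGCGC, the core of the NRF1 site, was in 3 windows (9.1%, against 5.74% of measured genes), and its longer palindrome in Ndufa11 alone (3.0% against 2.25%). The ETS sequence CCGGAAG, to which GABPA binds, was in 4 (12.1% against 19.03%). AAGGTCA was in 3, Ndufb2, Ndufb4 and Ndufs5 (9.1% against 4.11%), and its extension TCAAGGTCA in 0 (against 0.33%). CACGTG was in 2, Ndufa7 and Ndufv1 (6.1% against 11.4%), and the longer E-box of lysosomal genes, which contains it, in 0 (against 0.72%). CCAAT and the SP1 sequence GGGGCGG were in 10 each (30.3%), against 42.61% and 46.63%. Of all windows, 2.71% held GCATGCGC, 0.97% the NRF1 palindrome, 8.86% CCGGAAG, 4.72% AAGGTCA, 0.42% TCAAGGTCA, 7.15% CACGTG, 0.33% the lysosomal E-box, 37.41% CCAAT and 23.18% GGGGCGG. Shorter motifs lie inside the longer ones of their family, so those counts overlap. A match describes letters in the window, and no binding was measured.

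Several members share sequence with other genes or overlap their neighbours, so their values are uncertain where the counting could split reads. More than 15% of the 31-base stretches recur in other genes for 9 members: Ndufb6, Ndufa13, Ndufb11, Ndufs5, Ndufs3, Ndufa12, Ndufb4, Ndufb9 and Ndufs6. Exons overlap a gene on the opposite strand for 13 members and on the same strand for 3. The 19 members that share at most 5% had a median log2 fold change of 0.69, equal to that of the whole list at this precision.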

How the data were processed

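Inguinal fat RNA was measured in 2 libraries labelled FLCNKO and 2 labelled WT; groups and replicate numbers came from the titles. The authors deposited 1 table of log2 values per library; STAR, limma and mouse build mm9 are named per the submitters' processing notes. The sources used here do not name versions, an annotation, a counting program or a strand setting. The values matched a quantile-normalized log2 scale, so sequencing depth is unknown and counting error is not estimated. Symbols were matched for 13592 genes, and 85 had none.

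All 13677 genes were fitted together with limma 3.58.1 in R 4.3.3, with group as the only term, variances moderated along their trend with expression level (2 residual and 3.09 prior degrees of freedom), two-sided tests and Benjamini-Hochberg adjustment over all genes at a threshold of 0.05. No filter on low values was used. The fit was tested on simulated data. Members, lists and motifs were chosen with earlier results of these data known. Every member may be named; values per library are given for members past the threshold, core subunits, the 4 highest and 4 lowest log2 fold changes and overlapping members, and further members where a sentence compares them. Assembly factors past the threshold and the highest and lowest, Flcn, Ndufa4l2 and mitochondrially encoded subunits are named; other genes were chosen after their values were seen. Transcript GC content, length and shared 31-base stretches came from GENCODE M21 and promoter windows from RefSeq (GRCm38.p6), a different build from mm9, so no position was joined to the values. Alternatives were filters, normalization, variance moderation, library weights, a replicate block, leaving out each library and, added later, a correction for GC content and length. Figures used matplotlib 3.10.9.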

Additional observations from a re-analysis of the deposited data

How the results depend on the processing

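All 36 members kept a positive log2 fold change under every alternative, except that Ndufc2, at -2e-04 to 0.3797 when 1 library was left out, was below 0 without FLCNKO-labelled replicate 1. The count of members called by limma was 1, and became 2 when genes with a mean under 8 were dropped or with robust estimation, 3 with array weights, 6 with correction for GC content and length, 9 with the replicate block and 0 without the mean-variance trend (22 at an unadjusted p under 0.05). It was 0 whichever library was left out, with 16 to 35 members at an unadjusted p under 0.05. Assembly factors called were 3 with the replicate block, and 0 without the trend (11 unadjusted) and whichever library was left out (4 to 15 unadjusted), against 1. Over all genes the 218 calls became 325 when genes with a mean under 8 were dropped, 344 with robust estimation and 271 with array weights. They became 842 with the replicate block and 405 with the GC and length correction. They became 0 without the trend (1508 higher and 1194 lower at an unadjusted p under 0.05) and whichever library was left out (756 to 1733 higher and 639 to 1722 lower). The member median lay between 0.46 and 0.95 when 1 library was left out. The assembly factor median lay between 0.37 and 0.65, and was 0.39 with the GC and length correction. Nothing in the labels pairs libraries of the same number, and their deviations correlated at 0.363 over all genes; the samples share only a number. Leaving out a library leaves its group with 1, which is then assumed to vary like the other group. Unknown depth and 2 libraries per group limit all tests.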
